A study of Mus musculus with 18 samples.

Results

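RGS genes encode regulators of G protein signalling, and 8 of them were followed here in mouse ovaries: Rgs2, Rgs3, Rgs4, Rgs5, Rgs10, Rgs13, Rgs16 and Rgs19. They were chosen by symbol, as probe sets annotated to exactly 1 of the 8 names, and the probe set with the highest mean over all 18 arrays stood for each gene. All 8 were found among the 18193 genes with a probe set of their own, and 6 of them were among the 9689 genes bright enough to be tested. Rgs4 and Rgs16 were too dim in every group. The choice of these genes from the family was made with results of these arrays known, among them the rise of Rgs13 after PMSG in both genotypes. The differences of Rgs13 between PMSG and untreated ovaries are therefore given as a description with no p-value. Apart from the genotype difference after E2, its other comparisons use the same PMSG or untreated arrays. These are the other genotype differences, E2 against untreated, PMSG against E2, the interactions and the averages over states or genotypes. Their p-values are therefore not independent of that choice. The other members, Rgs3 among them, and the lists of further genes were also chosen with earlier results of these arrays known. The p-values printed for them may likewise not be independent of the choice.

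An RGS protein binds the active G alpha subunit of a heterotrimeric G protein and speeds the hydrolysis of its GTP, which shortens the signal of the G protein coupled receptor upstream. Most members of the family act on subunits of the Gi and Gq classes. In the ovary, the receptors for the gonadotropins, for prostaglandins and for endothelin are G protein coupled receptors.

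The ovaries came from female mice 21 days old on a C57B6J/S129 background. The mice carried either 1 copy of Pik3cd (Pik3cd+/-) or none (Pik3cd-/-). The protein made from Pik3cd is p110 delta, which carries the kinase activity of a phosphoinositide 3-kinase, and no wild-type group was used here. Mice of each genotype were untreated, were given a single injection of 10 IU PMSG, a gonadotropin with FSH-like activity, and were examined 44 hours later, or were given oestradiol (E2) in 3 injections of 0.03 ml spaced by 24 hours, with ovaries taken 72 hours after the first. The labels give the volume of E2 and not its mass, and no group was injected with vehicle, so a treatment effect holds the effect of the injection and of the added hours as well. Each of the 6 groups held 3 arrays, labelled as biological replicates, and it was not stated whether each came from 1 mouse. Whole ovaries were measured, so fewer cells of a type and less RNA per cell cannot be told apart. Genes of oviduct and fat varied between arrays. The oviduct genes summed to 4030.2 in Pik3cd+/- PMSG replicate 1, against 249 and 91.2 in replicates 2 and 3. The summed medians of adipocyte genes in Pik3cd+/- and Pik3cd-/- ovaries were 1898 and 5514 untreated, 2474 and 3086 after PMSG and 1794 and 3463 after E2. The part of such tissue in the readings was not tested.

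Median signals of the 18 arrays lay between 48.4 and 50.9 intensity units and precision is limited by having 3 arrays per group. Of the 6 probe sets for Pik3cd, 2 were lower in Pik3cd-/- ovaries in all 3 states, and no other probe set for it passed the test in any state. The 2 were dim, with untreated means of 67.1 and 22.4 in Pik3cd+/- and 26.2 and 13.3 in Pik3cd-/- ovaries. The brightest had means in Pik3cd+/- and Pik3cd-/- ovaries of 3115 and 3608 untreated, 3972 and 3126 after PMSG and 2739 and 3382 after E2. All 8 granulosa genes and all 5 theca and steroidogenic genes measured were bright enough to be tested, with medians over the arrays from 188 (Fshr) to 11707 (Inha) and from 129 (Star) to 10112 (Hsd3b1). The summed signal of 10 oocyte genes was higher in every Pik3cd-/- array than in any Pik3cd+/- array of the same state. Changes are differences of log2(signal + 8.58) ± SE of the model, folds are on the same scale and understate the change of dim genes, and padj is the adjusted p from limma over all 9689 genes. A gene with padj under 0.05 is called.

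Rgs13 was the member that varied most between groups, with a 15.4-fold range of group means, while the range of the other 7 members lay between 1.25-fold (Rgs2) and 1.44-fold (Rgs5). Rgs13 is one of the smallest RGS proteins and is best known from germinal centre B cells and mast cells. The untreated Pik3cd+/- arrays read 215, 312 and 344 intensity units, and those after PMSG read 1547, 1731 and 1427. In Pik3cd-/- ovaries the untreated arrays read 92.1, 33.7 and 179, and those after PMSG read 742, 278 and 679. In both genotypes every PMSG array was above every untreated array, and the lowest of the Pik3cd-/- PMSG arrays, replicate 2, was still below 2 of the 3 untreated Pik3cd+/- arrays. The difference between PMSG and untreated was 2.42 ± 0.51 (5.35-fold, n = 3 per group) in Pik3cd+/- ovaries and 2.51 ± 0.51 (5.70-fold) in Pik3cd-/- ovaries. The gap between these 2 responses was 0.09, with a 95% interval from -1.43 to 1.61 (limma, padj = 0.979), so the interval allows a response in Pik3cd-/- ovaries that is larger or smaller by over 2-fold. The response in Pik3cd-/- ovaries was 1.94 without untreated replicate 2, which had the lowest reading of all 18, and 2.26 and 2.32 without PMSG replicate 1 or replicate 3. Averaged over both genotypes, a comparison added after the data were seen, the PMSG difference of Rgs13 was 2.47 ± 0.36.

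**Figure D1:**
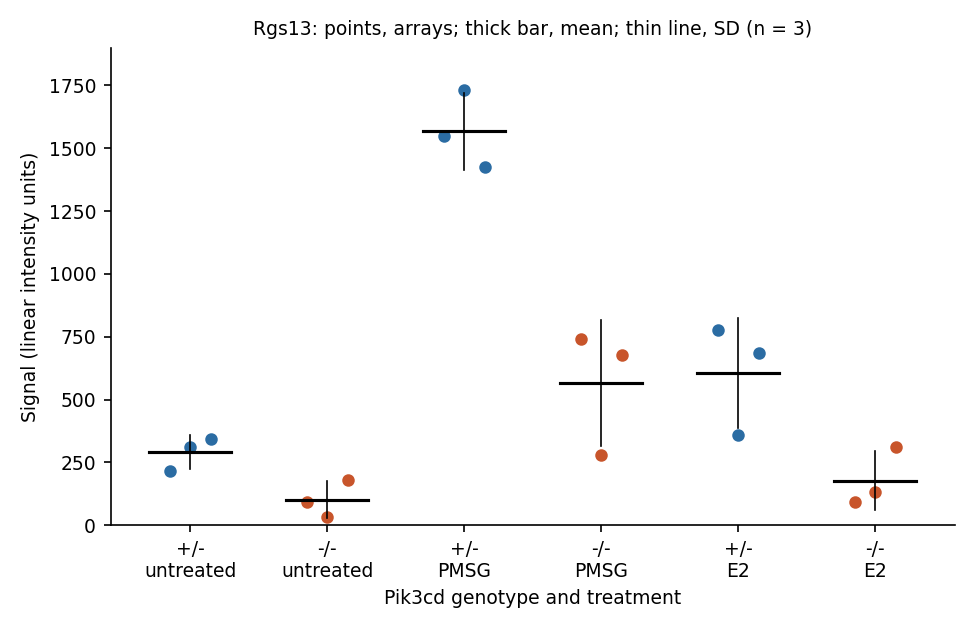
Signal of Rgs13 (y axis, linear intensity units) on each of the 18 arrays, by Pik3cd genotype and treatment (x axis); blue points are Pik3cd+/- and orange points Pik3cd-/-, thick bars are means and thin lines SD of 3 arrays. The 3 Pik3cd+/- arrays after PMSG sit between 1427 and 1731, above all other arrays, and within each state all Pik3cd-/- arrays lie below all Pik3cd+/- arrays.

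After E2, Rgs13 read 777, 360.2 and 684 in Pik3cd+/- ovaries and 91.1, 131 and 312 in Pik3cd-/- ovaries. The Pik3cd+/- E2 arrays were all above the untreated arrays of that genotype, whereas in Pik3cd-/- ovaries the ranges overlapped. Neither difference passed the test, at 1.00 ± 0.51 (limma, padj = 0.318) in Pik3cd+/- and 0.83 ± 0.51 (padj = 0.419) in Pik3cd-/- ovaries. PMSG against E2 gave 1.43 ± 0.51 in Pik3cd+/- ovaries (padj = 0.0714) and 1.68 ± 0.51 in Pik3cd-/- ovaries (padj = 0.0676), and these did not pass either. In the Pik3cd+/- group all PMSG arrays lay above all E2 arrays, while in the Pik3cd-/- group the PMSG array at 278 lay below the E2 array at 312.

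The signal of Rgs13 was lower without Pik3cd in each of the 3 states, and the single arrays of the genotypes did not overlap in any of them. The difference was -1.66 ± 0.51 in untreated ovaries (limma, padj = 0.0739), -1.57 ± 0.51 after PMSG (padj = 0.0856) and -1.83 ± 0.51 after E2 (padj = 0.0212), of which the last passed the test. The call after E2 was lost without Pik3cd+/- replicate 1 (-1.62, padj = 0.0898), Pik3cd-/- replicate 1 (-1.47, padj = 0.0964) or Pik3cd-/- replicate 2 (-1.71, padj = 0.0603), and in a model of only the groups compared (padj = 0.0741). In untreated ovaries the difference passed without Pik3cd-/- replicate 3 (-2.17, padj = 0.0226). The average over the 3 states, a comparison added after the data were seen, was -1.69 ± 0.29 (3.22-fold lower, padj = 7.27e-04), and it passed without any single array, with padj of at most 0.00212. The change of the genotype difference with E2 was -0.17, with a 95% interval from -1.69 to 1.35 (padj = 0.963).

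Ordered by mean, Rgs13 was highest in Pik3cd+/- ovaries after PMSG (1568 ± 153, SD, n = 3), whose arrays were separate from the next group. The other groups each overlapped with their neighbour in the order: Pik3cd+/- after E2 (607 ± 219), Pik3cd-/- after PMSG (567 ± 252), untreated Pik3cd+/- (290.5 ± 67.1), Pik3cd-/- after E2 (178 ± 118) and untreated Pik3cd-/- (102 ± 73.3). A single probe set measured Rgs13, so no other probe set stood as a check.

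Markers of the cells in which Rgs13 is best known were at low signal. Of 5 B cell genes measured, Cd79a, Cd79b, Pax5 and Blk never read above 30.4 on any array. The remaining gene, Ms4a1, read between 87.8 and 165, around the signal of 140 that the filter asked of a group mean. The 5 genes summed to medians in Pik3cd+/- and Pik3cd-/- ovaries of 249 and 208 untreated, 192 and 192 after PMSG and 220.4 and 234 after E2, given with no test. For these sums the Pik3cd-/- arrays all lay below the Pik3cd+/- arrays in untreated ovaries, and the genotypes overlapped after PMSG and after E2. The 6 mast cell genes were all too dim to test, with a highest reading of 80.9, and their summed medians in Pik3cd+/- and Pik3cd-/- ovaries were 203 and 142 untreated, 179 and 164 after PMSG and 153 and 148 after E2. The medians were thus lower without Pik3cd in each state, but the arrays of the genotypes were separate only in untreated ovaries. Their ranges were 145 to 187 against 140.3 to 177 after PMSG and 119 to 168 against 133 to 183 after E2. With PMSG the median was lower in Pik3cd+/- and higher in Pik3cd-/- ovaries. Genes of theca and other steroid-producing cells did move with PMSG, as 4 of the 5 tested were called as higher in Pik3cd+/- (20.7% of all genes were called in either direction) and 3 of 5 in Pik3cd-/- ovaries (3% of all genes). Their summed median went from 14186 to 34095 in Pik3cd+/- ovaries and from 12883 to 30477 in Pik3cd-/- ovaries, and none of the 5 genes was at 0. After E2 these sums had medians of 8240.2 in Pik3cd+/- and 10113 in Pik3cd-/- ovaries, below those of untreated ovaries, with 1 of the 5 called as lower in Pik3cd+/- (1.96% of all genes) and none in Pik3cd-/- ovaries (0.0826%, limma, with 4 of the 5 at an unadjusted p under 0.05). The 10 oocyte genes summed to between 16796 and 17966 in untreated Pik3cd+/- and between 24487 and 29551 in untreated Pik3cd-/- ovaries, to between 8561 and 9925 against between 19017 and 21606 after PMSG, and to between 10875 and 12369 against between 15405 and 28183 after E2. The 8 granulosa genes summed to a median of 28478 untreated and 27893 after PMSG in Pik3cd+/- ovaries, where PMSG replicate 3 reached 45320. In Pik3cd-/- ovaries these medians were 25970.4 and 33104. After E2 they were 28448 in Pik3cd+/- and 29107 in Pik3cd-/- ovaries. These sums weigh the brightest genes most, such as Inha with a median of 11707 over the arrays. Fshr of this list was called as higher with PMSG in Pik3cd+/- (limma, padj = 0.0159) and in Pik3cd-/- ovaries (padj = 0.00229). Inhba ranged from 273 to 11149 over all arrays. Calls of the other granulosa genes are not given here, so the sums do not show which of them moved. The part of the theca, granulosa, B cell, mast cell and oocyte genes in the differences of Rgs13 was not tested.

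Rgs13 and Rgs2 lie in the same stretch of chromosome 1 on the minus strand, at chr1:144137386-144177372 and chr1:143999338-144004149 in RefSeq's GRCm38.p6 table, and the promoters of this pair are shown because the one gene varied the most and the other the least between the groups. The 250 bases before each start are at chr1:144177373-144177622 and chr1:144004150-144004399, written 5′ to 3′ on the minus strand. Capitals mark TGACG, the core of the cAMP response element, in either orientation.
Rgs13: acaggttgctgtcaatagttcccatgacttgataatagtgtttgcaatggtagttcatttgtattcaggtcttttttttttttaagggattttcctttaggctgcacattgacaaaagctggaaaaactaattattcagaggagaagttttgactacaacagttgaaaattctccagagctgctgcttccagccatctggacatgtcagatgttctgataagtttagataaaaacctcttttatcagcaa
Rgs2: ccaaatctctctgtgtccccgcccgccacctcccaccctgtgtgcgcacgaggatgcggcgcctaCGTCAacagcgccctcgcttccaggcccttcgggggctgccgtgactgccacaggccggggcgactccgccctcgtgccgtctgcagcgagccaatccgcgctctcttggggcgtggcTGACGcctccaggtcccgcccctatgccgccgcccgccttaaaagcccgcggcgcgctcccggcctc
The window of Rgs13 holds no CG pair and is 36% G and C, and that of Rgs2 holds 30 CG pairs and is 72.4% G and C. TGACG or its reverse complement CGTCA occurred in the window of Rgs2 at 2 places and in that of Rgs4, also at 2 places. Of the 32851 RefSeq promoters of the same length, 17.8% held it. None of the 8 members' windows held the full element TGACGTCA (1.55% of all promoters), the FoxO motif GTAAACA (3.17%) or the NR5A motif AAGGTCA (4.08%) on either strand; overlapping matches were counted, and TGACG lies within the full element. These are matches of letters in 250 bases and no measurement of binding.

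Rgs3, which acts on Gi and Gq subunits and is made in long and short forms, was lower after PMSG. Its brightest probe set read 419.7, 456 and 439 in untreated Pik3cd+/- ovaries and 357, 329 and 313 after PMSG. In Pik3cd-/- ovaries it read 391, 350.4 and 374 untreated and 339.9, 348 and 326 after PMSG. The arrays did not overlap in either genotype. The fall of 0.39 in Pik3cd+/- ovaries passed the test (-0.39 ± 0.07, 1.31-fold, limma, padj = 0.00175), and the difference of -0.13 ± 0.07 in Pik3cd-/- ovaries did not (padj = 0.265). The 2 responses differed by 0.25 ± 0.09, a test with an unadjusted p of 0.0148 that did not pass after adjustment (padj = 0.367). Averaged over both genotypes, the difference of the brightest probe set was -0.26 ± 0.05 (padj = 0.00136), and of the other 3 probe sets 1 passed (-0.37, padj = 0.0115 over all probe sets) and 2 did not (-0.07, padj = 0.738, and -0.12, padj = 0.394).

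After E2, Rgs3 read 438, 447 and 452 in Pik3cd+/- and 419, 424 and 418 in Pik3cd-/- ovaries, so that PMSG and E2 arrays were separate in both genotypes. PMSG against E2 gave -0.41 ± 0.07 in Pik3cd+/- ovaries (limma, padj = 0.00109) and -0.31 ± 0.07 in Pik3cd-/- ovaries (padj = 0.0127). The second of these was lost without PMSG replicate 3 (-0.28, padj = 0.0653), without E2 replicate 2 (-0.30, padj = 0.0541) and in a model of only the groups compared (padj = 0.0591). None of the other 3 probe sets passed for PMSG against E2 in Pik3cd-/- ovaries, where they gave -0.39 (padj = 0.233), -0.22 (padj = 0.424) and -0.16 (padj = 0.607), each adjusted over all probe sets. E2 against untreated did not pass in Pik3cd+/- (0.03 ± 0.07, padj = 0.883) or Pik3cd-/- ovaries (0.17 ± 0.07, padj = 0.257). Untreated Pik3cd-/- arrays were all below the untreated Pik3cd+/- arrays, at -0.23 ± 0.07 (padj = 0.0618), and the groups overlapped after PMSG (0.02 ± 0.07, padj = 0.895).

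The 4 probe sets for Rgs3 did not all give this picture. The third by brightness gave -0.54 ± 0.12 for PMSG in Pik3cd+/- ovaries (limma over all probe sets, padj = 0.0138), the dimmest -0.26 ± 0.12 (padj = 0.209) and the second -0.12 ± 0.15 (padj = 0.685). That second probe set stood apart after E2 in Pik3cd+/- ovaries, at 338 ± 29.5 (SD, n = 3) against 210.3 ± 24 in untreated ovaries of that genotype and 229 ± 51.7 after E2 without Pik3cd. Its E2 difference was 0.67 ± 0.15 in Pik3cd+/- ovaries (padj = 0.0541), its genotype difference after E2 was -0.57 ± 0.15 (padj = 0.0323) and PMSG against E2 in Pik3cd+/- ovaries gave -0.79 ± 0.15 (padj = 0.00648). In all 4 probe sets the mean after PMSG in Pik3cd+/- ovaries was below both the untreated mean and the E2 mean of that genotype. For the average genotype difference over the 3 states, the brightest gave -0.10 (padj = 0.0615 over the tested genes), whereas the second (-0.34, padj = 0.0157) and the dimmest (-0.30, padj = 0.00982) passed as lower without Pik3cd. The files do not say which transcripts of Rgs3 each probe set reads.

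**Figure D2:**
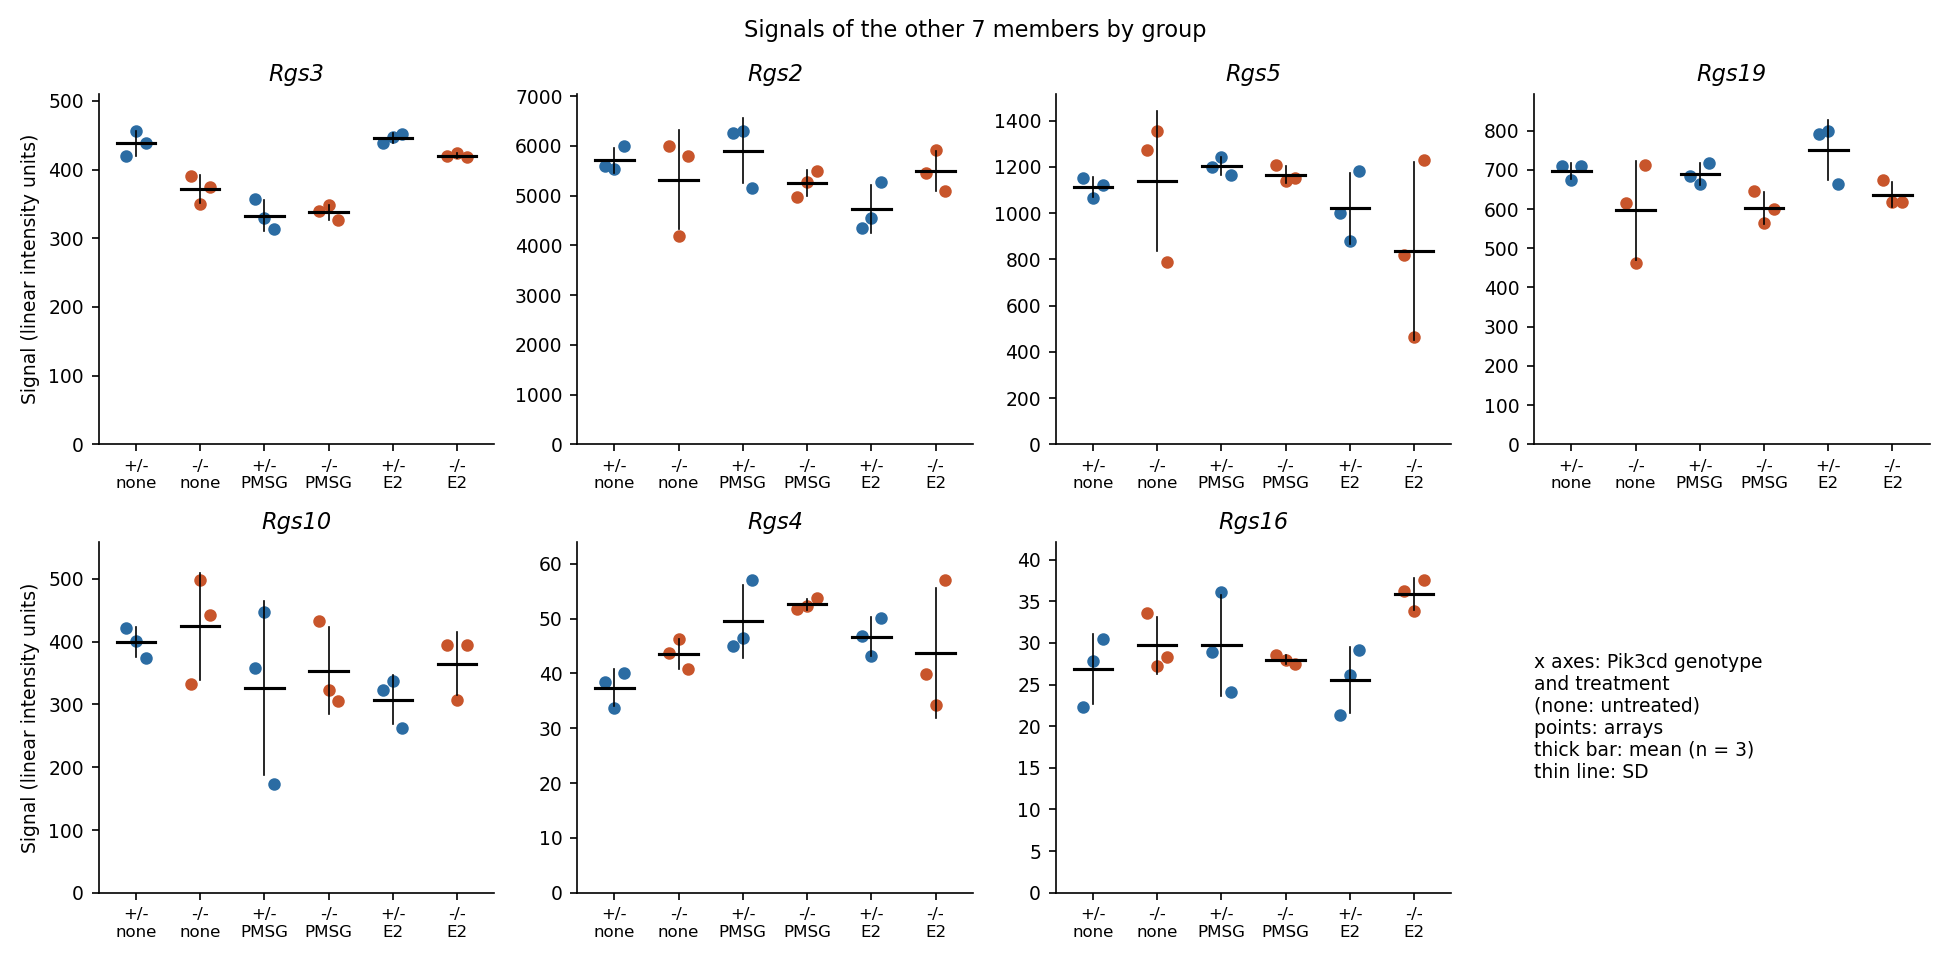
Signals of the other 7 members (y axes, linear intensity units, one scale per gene) on each array by Pik3cd genotype and treatment (x axes); points are arrays, blue for Pik3cd+/- and orange for Pik3cd-/-, thick bars means and thin lines SD of 3 arrays. Rgs3 separates the PMSG arrays (313 to 357) from the E2 arrays (418 to 452), whereas most groups of Rgs2, Rgs5, Rgs10 and Rgs19 overlap.

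Rgs2 limits signalling through Gq, and its brightest probe set was not called in any comparison. It read 5599, 5533 and 5999 in untreated Pik3cd+/- ovaries, 6262, 6298 and 5144 after PMSG and 4359, 4546 and 5274 after E2. In Pik3cd-/- ovaries the readings were 5997, 4181 and 5792 untreated, 4969, 5279 and 5489 after PMSG, and 5465, 5909 and 5097 after E2. All neighbours in the order of the 6 means overlapped. The E2 arrays of Pik3cd+/- ovaries lay below the untreated ones, at -0.28 ± 0.12 (limma, padj = 0.225), and PMSG against E2 in that genotype gave 0.32 ± 0.12 (padj = 0.0816). The latter passed without PMSG replicate 3 (0.41, padj = 0.0357) and in the dimmest of its 4 probe sets (0.48 ± 0.11, padj = 0.0202), which read 169.8 ± 10.2 (SD, n = 3) after PMSG and 120 ± 14.4 after E2. For PMSG against untreated, the brightest probe set gave 0.04 in Pik3cd+/- ovaries, with a 95% interval from -0.21 to 0.29, and 0.00 in Pik3cd-/- ovaries, from -0.25 to 0.25.

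Rgs5, a marker of pericytes and vascular smooth muscle that acts on Gi and Gq, was not called for its brightest probe set in any comparison. Untreated ovaries read 1152, 1065 and 1122 with 1 copy of Pik3cd and 1272, 1355 and 790.3 without it. After PMSG the readings were 1199, 1244 and 1165 in Pik3cd+/- and 1207, 1137 and 1154 in Pik3cd-/- ovaries. After E2 they were 999, 880.3 and 1183 in Pik3cd+/- and 817, 462 and 1231 in Pik3cd-/- ovaries, so the last group spread the most. E2 against untreated gave -0.13 ± 0.25 in Pik3cd+/- (limma, padj = 0.836) and -0.51 ± 0.25 in Pik3cd-/- ovaries (padj = 0.336). The other 3 probe sets were lower after E2 in both genotypes as well, by -0.24 to -0.48 in Pik3cd+/- and by -0.59 to -0.88 in Pik3cd-/- ovaries, with none past the test in a single genotype. Averaged over both genotypes, 2 of these 3 passed, at -0.65 (padj = 0.0347) and -0.67 (padj = 0.0491), while the brightest did not (-0.32 ± 0.18, padj = 0.277).

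The Pik3cd-/- E2 array with the lowest Rgs5, replicate 2, also had the lowest summed signals of that group for 7 endothelial genes (1146 against 1588 and 1768) and for 11 genes of mural cells and smooth muscle (11799 against 17105 and 18131). It was likewise the lowest for macrophage genes (986 against 2769 and 4099) and for adipocyte genes (57 against 3463 and 10146). No gene of the mural list had a reading under 66.9 on any array. The part of these cells in the readings of Rgs5 was not tested. Without replicate 3 of that group, which had the highest reading, Rgs5 passed as lower in Pik3cd-/- ovaries after E2 (-0.71, padj = 0.026) and as higher after PMSG than after E2 in Pik3cd-/- ovaries (0.91, padj = 0.015). With all arrays these were -0.38 ± 0.25 (padj = 0.275) and 0.58 ± 0.25 (padj = 0.196), and without the low replicate 2 they were -0.01 (padj = 0.964) and 0.215 (padj = 0.672). The other 3 probe sets gave 0.895, 0.94 and 0.57 for PMSG against E2 in Pik3cd-/- ovaries, of which the first passed (padj = 0.0419 over all probe sets).

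**Figure D3:**
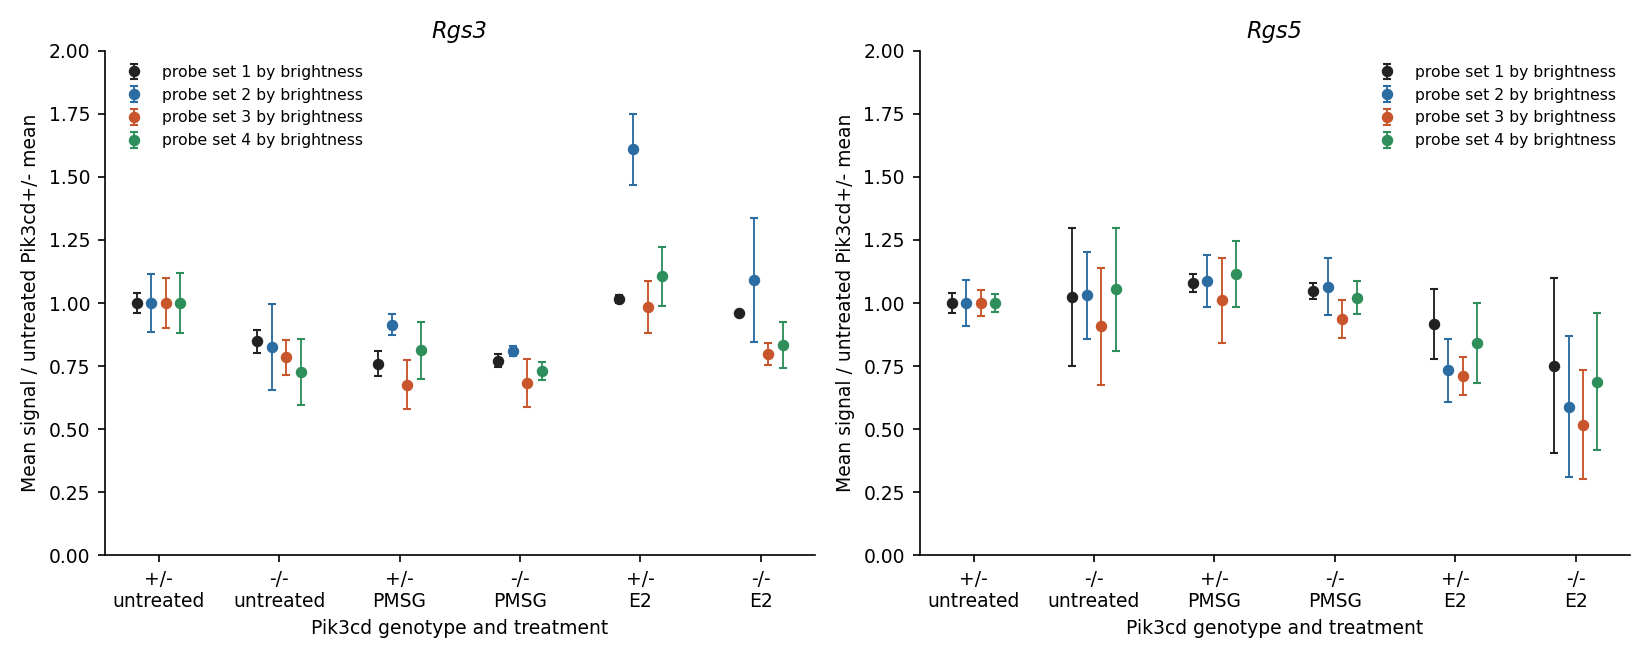
Group means of each of the 4 probe sets for Rgs3 and for Rgs5, divided by that probe set's mean in untreated Pik3cd+/- ovaries (y axis, no unit), by Pik3cd genotype and treatment (x axis); bars are SD of 3 arrays on the same scale, and colours rank the probe sets by brightness. The second probe set for Rgs3 stands above the other 3 after E2 in Pik3cd+/- ovaries (338 against 210.3 untreated), and all 4 probe sets for Rgs5 have their lowest mean after E2 in Pik3cd-/- ovaries.

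Rgs19, also known as GAIP and active on Gi subunits, read 709.7, 674 and 709.6 in untreated Pik3cd+/- ovaries and 616, 462 and 713 in untreated Pik3cd-/- ovaries. After PMSG the readings were 685, 663 and 718 against 645, 564 and 601, which did not overlap between the genotypes. After E2 they were 791, 799 and 663 against 673, 619 and 619, where the ranges overlapped. The genotype difference was -0.24, -0.19 and -0.23 in the 3 states, each ± 0.12, and none passed the test (limma, padj = 0.242, 0.423 and 0.17). The added average over the 3 states was -0.22 ± 0.07 (1.17-fold lower, padj = 0.0244). It did not pass without Pik3cd-/- PMSG replicate 2 (-0.21, padj = 0.0534) or without Pik3cd+/- E2 replicate 2 (-0.21, padj = 0.051), nor in the second probe set (-0.11, padj = 0.502 over all probe sets). For the brightest probe set of Rgs19, the differences of PMSG and E2 against untreated lay between -0.02 and 0.11 in the 2 genotypes, and none was called.

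Rgs10, which acts on Gi subunits and is abundant in macrophages and microglia, was not called in any comparison, and its arrays varied widely within groups. The Pik3cd+/- readings were 422, 401 and 374 untreated, 358, 447 and 174 after PMSG and 323, 337 and 263 after E2. The Pik3cd-/- readings were 332, 499 and 442 untreated, 433, 323 and 305 after PMSG and 394, 307 and 394 after E2. All neighbouring groups overlapped in the order of means, from 424 in untreated Pik3cd-/- to 308 in Pik3cd+/- ovaries after E2. The differences against untreated lay between -0.20 and -0.38, with SE of 0.25. That for PMSG in Pik3cd+/- ovaries rested on replicate 3, the array at 174, without which it was 0.01 (limma, padj = 0.985). Genes of macrophages, one of the cell types known for Rgs10, were called as higher after PMSG for 3 of the 5 tested in Pik3cd+/- ovaries, beside 20.7% of all genes called in either direction. In Pik3cd-/- ovaries none of the 5 was called with limma or had an unadjusted p under 0.05 (3% of all genes were called). Their part in the readings of Rgs10 was not tested.

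Rgs4 and Rgs16, both of which act on Gi and Gq, had too low a signal for the test. Rgs4 read between 33.6 and 40.1 in untreated Pik3cd+/- ovaries, between 45 and 57.1 after PMSG and between 43.1 and 50.1 after E2, so that both treated groups lay above the untreated one. In Pik3cd-/- ovaries it read between 40.8 and 46.3, between 51.7 and 53.7 and between 34.3 and 57.1. The PMSG difference was 0.33 ± 0.13 in Pik3cd+/- and 0.23 ± 0.13 in Pik3cd-/- ovaries. In a fit without the filter on low signal neither passed (limma, padj = 0.101 and 0.392), and the average over both genotypes did (0.28, padj = 0.0416). Of its other 2 probe sets, the dimmest, with a mean signal of 12.8, passed for PMSG in Pik3cd+/- ovaries (0.24 ± 0.07, padj = 0.0357 over all probe sets), and the other did not (0.435 ± 0.17, padj = 0.126). Rgs16 read between 21.3 and 36.1 in all groups except Pik3cd-/- ovaries after E2, where it read 36.2, 33.8 and 37.6. The genotype difference after E2 was 0.39 ± 0.11, with padj = 0.0425 without the filter, but its other 2 probe sets went the other way (-0.16 and -0.17).

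Only 6 members could be called, so 1 call is a large share of them, and each count is set beside the percentage of all tested genes called. PMSG in Pik3cd+/- ovaries called 2 of the 6 tested members, Rgs13 as higher and Rgs3 as lower, where 20.7% of all 9689 genes were called. PMSG in Pik3cd-/- ovaries called 1 (Rgs13, higher) beside 3% of all genes, and nothing is read from these 2 counts for Rgs13. E2 called none of the 6 in Pik3cd+/- ovaries (1.96% of all genes) or in Pik3cd-/- ovaries (0.0826%), and 1 member had an unadjusted p under 0.05 in each genotype, Rgs2 in the former and Rgs3 in the latter. The genotype difference called none in untreated ovaries (3.21%, with 2 members at an unadjusted p under 0.05) or after PMSG (5.29%, with 1), and it called Rgs13 after E2 (20.6%). PMSG against E2 called Rgs3 in Pik3cd+/- ovaries (14.4%) and in Pik3cd-/- ovaries (4.96%). Of the added averages, the genotype difference called Rgs13 and Rgs19, both as lower (31.3% of all genes), PMSG called Rgs13 and Rgs3 (27%, with nothing read from the count for Rgs13), and E2 called none (5.69%, with 2 members at an unadjusted p under 0.05). The percentages of all genes themselves moved with single arrays: the 311 genes called for the untreated genotype difference became between 1 and 716 with an array left out, the 513 after PMSG between 84 and 365, and the 190 for E2 in Pik3cd+/- ovaries between 22 and 107.

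Neither interaction of treatment and genotype called a member or any other gene with limma (0% for PMSG and 0% for E2). At an unadjusted p under 0.05 there was 1 member (Rgs3) among 986 genes for PMSG and no member among 717 genes for E2. No difference between the genotypes in the response of a member was thus shown, which does not show that the responses were equal.

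**Figure D4:**
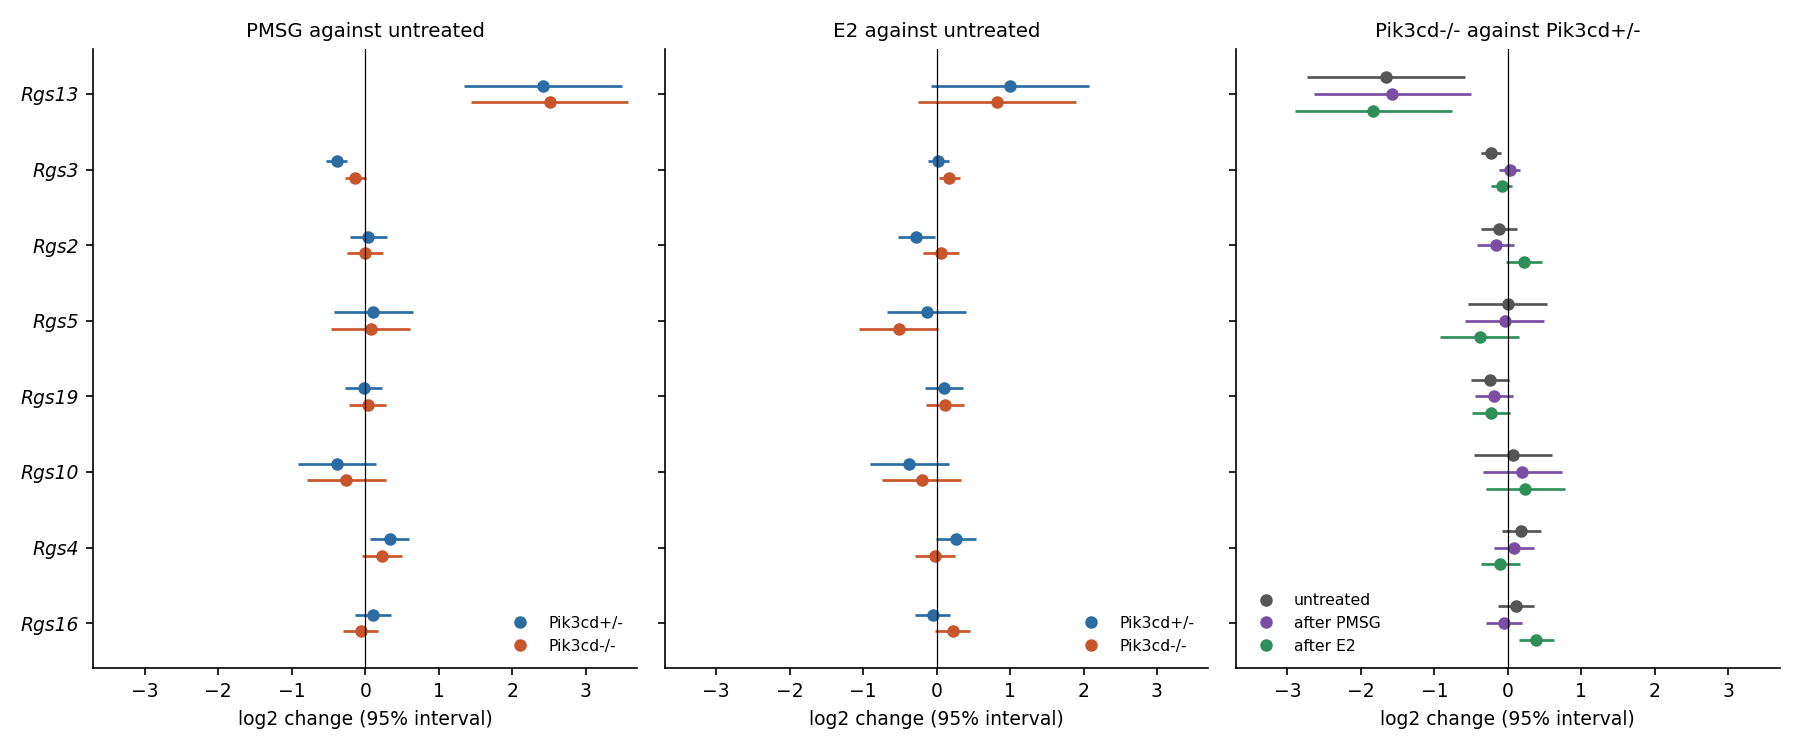
Differences of log2(signal + 8.58) for the 8 members (rows), with 95% intervals of the model as lines (x axes): PMSG against untreated and E2 against untreated in each genotype, and Pik3cd-/- against Pik3cd+/- in each state. Rgs13 lies at 2.42 and 2.51 for PMSG and between -1.57 and -1.83 for the genotype difference, whereas the other members lie between -0.51 and 0.39 in every comparison shown; Rgs4 and Rgs16 were too dim to be tested.

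Of 13 further RGS genes looked for, 11 had a probe set and 3 were bright enough to be tested, Rgs11, Rgs12 and Rgs17. Rgs11, which pairs with G beta 5, read 81.7 ± 15.4 (SD, n = 3) in untreated Pik3cd+/- ovaries, 166 ± 46.4 after E2 in that genotype and 71.5 ± 11.5 after E2 without Pik3cd. Its other 3 group means lay between 55.4 and 92.8. Rgs11 thus passed the filter on low signal only through the Pik3cd+/- E2 group, so its differences from that group are given as these values with no test. Rgs17, which acts on Gi and Gz, fell after PMSG in Pik3cd+/- ovaries (-0.77 ± 0.20, padj = 0.0161), from 339 ± 19 to 196 ± 13.4, and the call was lost without untreated replicate 1 (padj = 0.0638). Rgs12, a long RGS protein that acts on Gi, fell there by 0.36 (-0.36 ± 0.10, padj = 0.0168), from 186 ± 27.7 to 143 ± 8.75, and that call was lost without untreated replicate 1 or 2 or PMSG replicate 1 (padj up to 0.0976). Against E2 in that genotype PMSG gave -0.37 ± 0.10 for Rgs12 (padj = 0.0176), lost without PMSG replicate 1 or E2 replicate 1 or 2 (padj up to 0.0756).

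The G proteins, receptors and enzymes that RGS proteins bear on were followed as 6 lists with 97 entries, of which 54 were tested. PMSG called 5 of the 54 in Pik3cd+/- ovaries, 4 as higher and 1 as lower, which is 9.26% beside 20.7% of all genes. In Pik3cd-/- ovaries it called 1, as higher (1.85% beside 3%). Fshr, the FSH receptor, was called in both, at 1.16 ± 0.30 (limma, padj = 0.0159) and 2.04 ± 0.30 (padj = 0.00229). The others in Pik3cd+/- ovaries were Gnai1, a Gi alpha subunit (0.53 ± 0.13, padj = 0.0114), Prkar2b, a regulatory subunit of protein kinase A (0.94 ± 0.25, padj = 0.0159), the oxytocin receptor Oxtr (1.64 ± 0.43, padj = 0.0151) and, as lower, the gamma subunit Gng3 (-0.78 ± 0.15, padj = 0.00314). Of these calls, that of Gng3 and that of Fshr in Pik3cd-/- ovaries passed without any single array, and the other 4 were lost without untreated Pik3cd+/- replicate 1 (padj up to 0.0799 over all left-out arrays). Each was also lost without 1 more array, untreated replicate 2 for Fshr and Prkar2b, PMSG replicate 1 for Gnai1 and PMSG replicate 2 for Oxtr. The median difference of the 54 was -0.01, and that of all genes -0.06.

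E2 called 2 of the 54 in Pik3cd+/- ovaries, both as higher (3.7% beside 1.96% of all genes), and none in Pik3cd-/- ovaries (0.0826% of all genes, limma, with 10 of the 54 at an unadjusted p under 0.05). They were the adenylyl cyclase Adcy9 (0.82 ± 0.13, limma, padj = 0.00723) and the cAMP phosphodiesterase Pde7b (0.73 ± 0.17, padj = 0.0389), the latter lost without any of the 6 arrays in turn (padj up to 0.18). The genotype difference called none of the 54 in untreated ovaries (3.21% of all genes, with 13 of the 54 at an unadjusted p under 0.05) and 3 after PMSG (1 higher and 2 lower without Pik3cd, 5.56% beside 5.29%). After E2 it called 11, 2 as higher and 9 as lower, with a median of -0.02 over the 54 and -0.10 over all genes. That is 20.4% beside 20.6% of all genes, so the list was called at the background share and the genes below are named as single genes. After E2, Adcy9 (-0.83 ± 0.13, padj = 0.00164), Pde7b (-0.95 ± 0.17, padj = 0.00278), Plcb3, a phospholipase C that Gq activates (-0.44 ± 0.10, padj = 0.0101), Gna13 (-0.41 ± 0.09, padj = 0.00815) and Gna12 (-0.41 ± 0.10, padj = 0.0105) were lower without Pik3cd and stayed past the threshold without any single array. The other 6 were Gnaq (-0.32), Gnb2 (-0.34), the receptor kinase Grk6 (-0.38) and Prkar1b (-0.67) as lower and Pde3b (0.34) and the prostaglandin receptor Ptger4 (0.575) as higher, with padj from 0.0153 to 0.0491, and each was lost without at least Pik3cd+/- E2 replicate 1 (padj up to 0.174). After PMSG the 3 were Gng3 (0.77, padj = 0.00845), lost without Pik3cd-/- replicate 2 (padj = 0.0542), and Adcy9 (-0.51, padj = 0.0336) and Pde7b (-0.64, padj = 0.0382), which were lost without 6 and 5 of the 6 arrays in turn.

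PMSG against E2 called 7 of the 54 in Pik3cd+/- ovaries, 4 as higher and 3 as lower after PMSG, and 2 in Pik3cd-/- ovaries, both as higher. These are 13% and 3.7% of the list, beside 14.4% and 4.96% of all genes. Fshr was called in both (1.31 ± 0.30, limma, padj = 0.0108, and 1.87 ± 0.30, padj = 0.00197), and with Prkar2b (1.27 ± 0.25, padj = 0.00403) and Gnai1 (0.615 ± 0.13, padj = 0.00644) it stayed past the threshold without any single array. The others in Pik3cd+/- ovaries, Prkar1a (0.26) as higher and Prkar1b (-0.72), Adcy9 (-0.47) and Gna12 (-0.42) as lower, were each lost without at least 1 array (padj up to 0.118), as was the prostaglandin receptor Ptger2 in Pik3cd-/- ovaries (0.66, padj up to 0.171). Adcy9, the gene of these lists with the smallest padj for the genotype difference after E2, read 299 ± 64.4 against 388 ± 22.5 (SD, n = 3) untreated without and with Pik3cd, 346 ± 28.5 against 495 ± 21.1 after PMSG and 386 ± 42.3 against 693 ± 84 after E2.

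As a description of which tested genes varied like a member over the 18 arrays, Pearson's r of log2 values was taken, with no test, since the arrays share their groups. Rgs13 was most like Tmem87b (r = 0.961), Asb1 (0.949) and Ssr3 (0.947). Ssr3, a subunit of the translocon-associated complex of the endoplasmic reticulum, had group means of 3850.4 in Pik3cd+/- ovaries after PMSG and 2752 in untreated Pik3cd-/- ovaries, the same highest and lowest groups as Rgs13. Rgs3 was most like Enpep (0.881), a membrane aminopeptidase, with Nadk2 (0.87) and Prps2 (0.863) next, and Rgs2 like Morf4l2 (0.888), Klhl9 (0.869) and Celf1 (0.847). Rgs5 was most like Cd93 (0.926), an endothelial surface protein, Nbr1 (0.903) and Aoc3 (0.879), an amine oxidase of vascular smooth muscle. Rgs19 was most like Srm (0.904), Tnpo3 (0.887) and Fkbp11 (0.878), and Rgs10 like Sirpa (0.771), a receptor of myeloid cells, Cmbl (0.739) and Frmd6 (0.73). The dim Rgs4 and Rgs16 had r of at most 0.844 (Cebpa) and 0.904 (Pttg1ip).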

How the data were processed

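Total RNA of 18 ovary samples was hybridised to Affymetrix arrays, 3 per group. The deposited values are linear signal intensity, with 1 value for each probe set on each array. Per the submitters' processing notes the authors used MAS5, with no version given, and the scaling of the arrays is not given in the sources used here. No further normalization was applied.

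Of 45101 probe sets, 64 controls, 932 with several gene symbols and 9160 with none were left out. The brightest of a gene's probe sets stood for it (18193 genes). Values were taken as log2(signal + 8.58), the 10th percentile of all values. A gene was tested if a group mean exceeded log2 7.22, the median over genes and groups (9689 genes). A model of 6 group means was fitted to all 18 arrays with limma 3.58.1 in R 4.3.3 (eBayes with a trend, 12 residual and 3.73 prior degrees of freedom), two-sided, adjusted by Benjamini and Hochberg over all tested genes. Other probe sets were tested in an unfiltered fit of all 34945 probe sets with 1 symbol. The code was tested on simulated data.

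Members and lists were chosen with earlier results of these data known. All 8 members were followed in every comparison, and not every value is printed. For the brightest probe sets, differences without a printed value were not called or, for Rgs4 and Rgs16, not tested. Named besides were other RGS genes that were called, in the 11 planned comparisons up to 4 called genes of each G protein list with the smallest adjusted p, and the 3 genes most like each member, without clone or provisional names. The 11 planned comparisons were the 4 treatment effects, the 3 genotype differences, PMSG against E2 in each genotype and the 2 interactions, and 3 averages were added after the data were seen. The treatment, PMSG against E2 and genotype comparisons share arrays.

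Same-numbered arrays of different groups did not deviate together (45 pairs, r from -0.4 to 0.338, median -0.03), so the numbers were not taken to pair the arrays. The fit was repeated with a pseudocount of 1 or 64, with no filter, with a filter at the 70th percentile or, added after the data were seen, at the median of all values, with quantile normalization, eBayes without trend, only the groups compared, a replicate block, the probe set with the highest variance, each other probe set and each array left out. Promoter sequences are RefSeq's, all 8 members matched.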

Additional observations from a re-analysis of the deposited data

How the results depend on the processing

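Counts are of members called, of the 6 tested unless the filter was moved. With the probe set of highest variance, PMSG in Pik3cd+/- ovaries called 1 in place of 2, E2 in Pik3cd+/- ovaries 1 in place of 0, the genotype difference after E2 2 in place of 1, PMSG against E2 in Pik3cd+/- ovaries 2 in place of 1, the average PMSG effect 1 in place of 2 and the average E2 effect 2 in place of 0. An equal count can hide a change of genes. In that setting Rgs3 passed and Rgs19 did not for the average genotype difference (limma, padj = 0.00989 and 0.428). For PMSG against E2 in Pik3cd-/- ovaries, Rgs5 passed and Rgs3 did not (padj = 0.038 and 0.163). With only the groups compared, PMSG in Pik3cd-/- ovaries, the genotype difference after E2 and PMSG against E2 in Pik3cd-/- ovaries called 0 in place of 1, the genotype difference after PMSG 1 in place of 0 and PMSG against E2 in Pik3cd+/- ovaries 2 in place of 1. A pseudocount of 64 gave 1 for the genotype difference after PMSG and 2 for PMSG against E2 in each genotype. No filter gave 2 for the genotype difference after E2, adding Rgs16. A replicate block gave the same 3 counts as the pseudocount of 64 (1, 2 and 2), each by adding Rgs13, and changed no other count. Without single arrays the count ranged from 0 to 1 for the untreated genotype difference and for the PMSG response without Pik3cd, from 0 to 2 for the genotype difference after E2, from 1 to 2 for PMSG against E2 in Pik3cd+/- ovaries, from 0 to 3 for it in Pik3cd-/- ovaries and from 1 to 3 for the average genotype difference, where Rgs3 also passed without untreated Pik3cd-/- replicate 1 or Pik3cd+/- PMSG replicate 3. The other counts stayed within 1.5 times of the main ones, the other filters, quantile normalization, a pseudocount of 1 and eBayes without trend changed no count by more, and no called direction was reversed. The cause of these changes was not tested. Of all genes, the settings other than left-out arrays called between 219 and 2141 for the genotype difference after E2 (main 2000), 134 and 719 for E2 in Pik3cd+/- ovaries (190), 0 and 13 for E2 in Pik3cd-/- ovaries (8), 187 and 501 for the untreated genotype difference (311), 373 and 907 for that after PMSG (513), 211 and 456 for PMSG without Pik3cd (291), and up to 3 and 1 for the interactions with PMSG and E2 (0 and 0). Without single arrays the calls among all genes ranged from 823 to 2173 for PMSG with and from 84 to 383 without Pik3cd, from 22 to 107 and from 1 to 37 for E2, from 1 to 716, from 84 to 365 and from 708 to 2586 for the genotype difference untreated, after PMSG and after E2, and from 617 to 1577 and from 211 to 1244 for PMSG against E2, and the interactions called up to 6 and 66 genes and no member. Of the 45 same-numbered pairs of arrays 14 had a correlation over 0.1, against 31 of the 90 other pairs. Signal limits Rgs4 and Rgs16, and Rgs13 in untreated Pik3cd-/- ovaries, where 1 reading was 33.7.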
